A study of Mus musculus with 2 samples.

Results

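Marginal zone and Notch pathway genes were examined in a map of accessible chromatin of mouse splenic B cells. The 9 genes were Cr2, Cd1d1, Notch2, Dtx1, S1pr3, Cd9, Cd55, Rbpj and Hes1, and they were chosen by name from 22350 protein-coding genes on chromosomes 1 to 19 and X. Their loci, taken as the gene body and 50 kb on either side, held 95 of the 47474 DNase I hypersensitive sites (DHS) called on these chromosomes. DHS are stretches of chromatin that DNase I cuts readily because they are not packed in nucleosomes. Cells came from the spleens of C57/Bl6 mice aged 8 weeks with the genotype Trp53+/+ and mock treatment, and were selected with magnetic beads for B220, a surface form of CD45 carried by B cells. The data are a peak list from 1 DNaseI library, and 1 input library of the same genotype and treatment was not analysed here.

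Marginal zone B cells line the border between the white and red pulp of the spleen and respond early to antigens carried by blood. Their formation requires Notch2, a receptor that is cut after binding the ligand Dll1 on stromal cells. The released intracellular part enters the nucleus and joins RBPJ, a DNA-binding protein, at target genes such as Hes1, a transcriptional repressor, and Dtx1, a ubiquitin ligase. Cr2 (complement receptor CD21) and Cd1d1 (a lipid-presenting molecule) are carried at high levels by marginal zone cells. S1pr3 is a receptor for sphingosine 1-phosphate, Cd9 is a tetraspanin, and Cd55 protects cells from complement. Beads for B220 take follicular, marginal zone and other B cells together. A DHS that is weak in all cells and a DHS that is strong in a minority of them cannot be told apart in this list.

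The library was made without replicates, so every comparison below is descriptive and no test of a difference was possible. The authors gave each peak a score whose scale is not stated, so a ratio of scores has no stated meaning. It was compared only within the list, by rank, by medians and by counts at or above a level. A promoter DHS, which 57.0% of all protein-coding genes had, was present at the B cell markers Cd79a, Cd79b, Ms4a1, Pax5 and Cd22. Their highest promoter scores ran from 83.97 at Cd22 to 265.27 at Pax5, where coding transcripts alone gave 167.27. A promoter DHS was present at 2 of 6 T cell markers, 3 of 6 myeloid markers and 2 of 6 erythroid and megakaryocyte markers, of which the myeloid share was near that over all genes. Those without one were Cd3e, Cd3g, Cd4 and Cd8a, then Csf1r, Lyz2 and Mpo, and Gata1, Epor, Gp9 and Pf4. The highest scores among these lists were 97.67 at Cd5, which some B cells carry, 51.05 at Cd14 and 177.81 at Klf1. The part of such cells in the results below was not tested.

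Because RBPJ reads the DNA directly, the sequence of the accessible regions is shown before their scores. The word GTGGGAA was searched as the RBPJ site on both strands. A paired site was also searched, made of GTGNGAA and TTCNCAC with 15 to 17 bases between them, in which the second word is an RBPJ site on the opposite strand. The 250 bases before the transcription start site (TSS) of the outermost coding transcript held the single word in 3 of the 9 genes, Cr2, Cd9 and Hes1, against 5.11% of all protein-coding genes. These stretches, each inside a DHS, are given 5′ to 3′ on the strand of the gene with the RBPJ words in capitals.
Hes1 promoter, chr16:30065176-30065425, plus strand: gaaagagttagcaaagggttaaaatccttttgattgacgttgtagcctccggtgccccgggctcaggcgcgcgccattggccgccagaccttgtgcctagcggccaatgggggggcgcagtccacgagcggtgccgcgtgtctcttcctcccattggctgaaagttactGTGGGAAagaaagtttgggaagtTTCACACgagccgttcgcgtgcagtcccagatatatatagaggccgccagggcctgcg
Cr2 promoter, chr1:197002910-197003159, minus strand: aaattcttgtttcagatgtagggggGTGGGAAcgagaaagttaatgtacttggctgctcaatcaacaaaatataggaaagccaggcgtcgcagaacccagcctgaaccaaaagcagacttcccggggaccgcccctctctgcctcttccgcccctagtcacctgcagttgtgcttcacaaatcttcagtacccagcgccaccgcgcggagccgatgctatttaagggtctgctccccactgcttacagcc
Cd9 promoter, chr6:125444810-125445059, minus strand: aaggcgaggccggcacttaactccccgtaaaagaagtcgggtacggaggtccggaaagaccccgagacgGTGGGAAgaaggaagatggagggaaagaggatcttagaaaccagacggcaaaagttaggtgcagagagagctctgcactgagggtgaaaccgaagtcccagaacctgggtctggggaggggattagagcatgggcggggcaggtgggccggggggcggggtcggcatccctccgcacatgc

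The Hes1 promoter held the paired site, from 81 to 52 bases before the TSS, with 16 bases between both words. Of 22350 protein-coding genes, Hes1 was the only 1 with the paired site in these 250 bases (0.00447%). In the wider window from 5 kb upstream to 2 kb downstream of the TSS, 36 genes held it (0.161%), and Hes1 was the only member among them. The paired site lay inside the widest DHS of the 9 loci. The word of Cr2 began 225 bases and that of Cd9 181 bases before the TSS. A single word of this length is common in the wider window, where 8 of the 9 members and 75.7% of all genes held it. A match describes the sequence only, and binding of RBPJ was not measured.

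Words within the central 300 bp of DHS were then counted, so that each DHS contributed the same length. GTGGGAA was found in 9 of 95 DHS of the member loci (9.47%, exact 95% interval 4.42 to 17.2) and in 6.67% of all DHS, a share inside that interval. Of these 9 DHS, 6 lay in the Dtx1 locus, and Cd1d1, Notch2 and Hes1 had 1 each. The overlapping shorter word TGGGAA occurred in 32.6% of member DHS (23.4 to 43.0) against 25.6% of all, and GTGNGAA in 21.1% (13.4 to 30.6) against 16.4%. For comparison, a PU.1 word (GAGGAAGT) was present in 5.26% (1.73 to 11.9) against 3.61%, and an EBF1 word (TCCC and GGGA, 2 bases apart) in 3.16% (0.656 to 8.95) against 1.22%. PU.1 and EBF1 are transcription factors of the B lineage. The shares over all DHS lay within the interval of the member loci for all 5 words. The paired site was in the central part of 0 of the 95 DHS and of 0.0147% of all DHS.

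**Figure D1:**
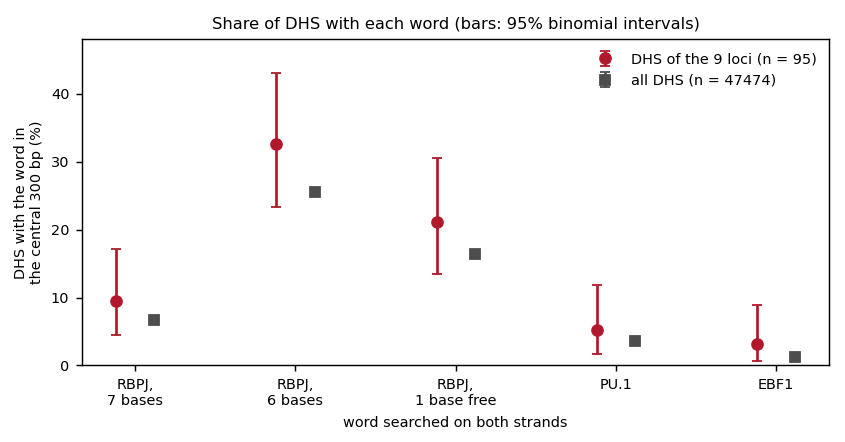
Share of DHS (%, vertical axis) with each word in the central 300 bp, for the 95 DHS of the 9 loci (circles) and all 47474 DHS (squares), with 95% binomial intervals for counting error (exact for circles, Wilson for squares). The RBPJ word is shown in its full form of 7 bases, its form of 6 bases and its form with 1 base free, beside the PU.1 and EBF1 words, and each square lies within the interval of its circle.

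Some central parts that held GTGGGAA away from the promoter of a coding transcript are shown for Dtx1 and Notch2. Those not printed include DHS of 25.60, 20.97 and 19.70 in Dtx1 and of 19.77 at Cd1d1. The plus strand is given, with the word in capitals.
Dtx1, 3′ of the gene, chr5:121119465-121119764: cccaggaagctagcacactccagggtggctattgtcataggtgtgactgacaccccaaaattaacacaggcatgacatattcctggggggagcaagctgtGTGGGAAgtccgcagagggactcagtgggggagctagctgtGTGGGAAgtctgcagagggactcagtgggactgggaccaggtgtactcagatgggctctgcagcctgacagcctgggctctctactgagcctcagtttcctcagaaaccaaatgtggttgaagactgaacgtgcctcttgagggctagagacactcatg
Dtx1, in the gene, chr5:121135805-121136104: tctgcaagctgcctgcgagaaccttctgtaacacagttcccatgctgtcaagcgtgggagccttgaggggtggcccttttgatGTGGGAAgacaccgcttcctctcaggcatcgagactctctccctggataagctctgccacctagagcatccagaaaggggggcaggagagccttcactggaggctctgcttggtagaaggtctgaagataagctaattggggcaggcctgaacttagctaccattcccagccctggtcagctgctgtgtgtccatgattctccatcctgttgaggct
Notch2, 5′ of the gene, chr3:97776814-97777113: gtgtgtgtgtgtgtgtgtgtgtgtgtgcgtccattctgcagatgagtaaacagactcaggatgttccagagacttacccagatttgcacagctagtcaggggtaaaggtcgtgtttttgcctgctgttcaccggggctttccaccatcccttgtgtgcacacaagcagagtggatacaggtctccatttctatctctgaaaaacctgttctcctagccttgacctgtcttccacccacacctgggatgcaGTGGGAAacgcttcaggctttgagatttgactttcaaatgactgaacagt

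The stretch 3′ of Dtx1 held the word 2 times and came from a DHS with a score of 60.06. The other printed DHS scored 38.29 in Dtx1 and 43.33 at Notch2. The 3 highest-scoring distal DHS of the 9 loci, meaning those outside every promoter window, held no GTGGGAA, PU.1 or EBF1 word in their central part. They are printed, plus strand, because each had a score near or above that of the promoter of its gene.
Cd1d1, 5′ of the gene, chr3:86821357-86821656: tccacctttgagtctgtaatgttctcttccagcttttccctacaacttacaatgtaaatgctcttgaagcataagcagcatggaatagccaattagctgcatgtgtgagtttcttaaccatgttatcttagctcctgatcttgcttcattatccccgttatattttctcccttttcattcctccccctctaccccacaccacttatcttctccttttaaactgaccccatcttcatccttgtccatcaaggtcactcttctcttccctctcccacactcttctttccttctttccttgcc
Cd9, 3′ of the gene, chr6:125376166-125376465: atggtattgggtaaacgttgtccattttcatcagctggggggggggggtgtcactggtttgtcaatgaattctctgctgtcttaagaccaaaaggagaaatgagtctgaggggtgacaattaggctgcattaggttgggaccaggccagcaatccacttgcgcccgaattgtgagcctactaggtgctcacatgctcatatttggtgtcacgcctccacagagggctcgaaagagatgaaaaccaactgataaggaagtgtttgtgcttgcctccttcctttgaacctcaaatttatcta
Rbpj, in an intron, chr5:53985418-53985717: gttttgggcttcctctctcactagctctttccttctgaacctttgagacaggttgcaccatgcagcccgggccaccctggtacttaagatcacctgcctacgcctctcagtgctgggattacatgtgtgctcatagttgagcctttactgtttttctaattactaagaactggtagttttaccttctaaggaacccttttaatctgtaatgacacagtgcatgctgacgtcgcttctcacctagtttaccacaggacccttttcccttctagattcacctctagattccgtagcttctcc

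A promoter DHS was called at all 9 genes. The promoter window began 5 kb before and ended 2 kb after each annotated TSS of the gene, and 57.0% of all protein-coding genes had a DHS there. All 9 kept it when TSSs of coding transcripts alone were used (56.4% of all genes) and when only DHS at or above the median score were used (50.3%). A DHS also covered the TSS of a coding transcript at all 9 genes, against 45.1% of all genes. The highest promoter score had a median of 120.03 over the members, against 33.5 over all protein-coding genes with genes lacking a DHS counted as 0, and 101 over the genes that had a promoter DHS. With the outermost TSS of each gene alone, the median of the members was 61.9, and Rbpj had no promoter DHS. The values of 33.5 and 101 use every annotated TSS, so 61.9 has no like value beside it. A score of at least 100 was reached by 6 of 9 members and 29.0% of all genes, or by 5 of 9 and 28.7% when only coding transcripts were considered.

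**Figure D2:**
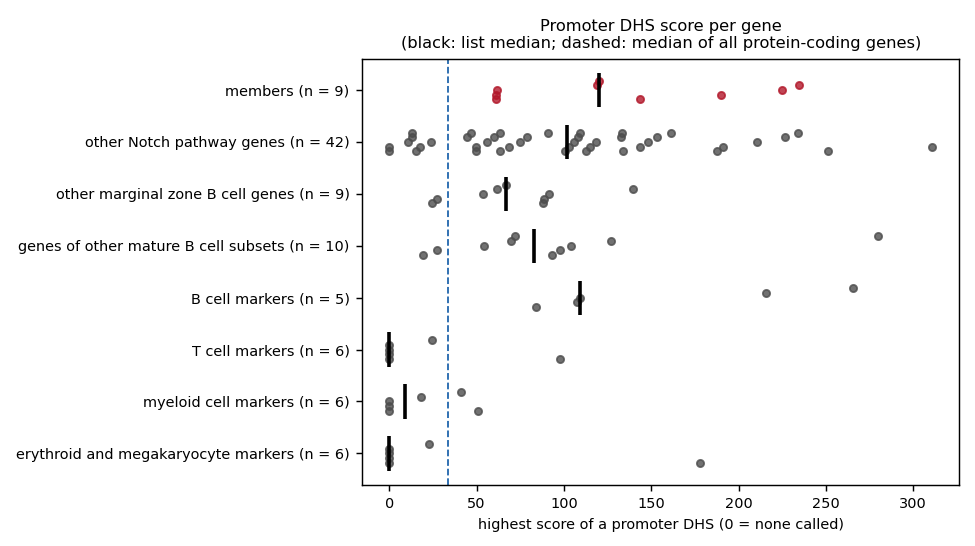
Highest score of a promoter DHS (horizontal axis, authors' score, 0 where none was called) for each gene of the 9 members and of 7 comparison lists, with 1 point per gene. Black lines mark the list medians and the dashed line the median of all protein-coding genes (33.5). All 9 members lie between 61.10 and 234.36, to the right of the dashed line.

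The receptor Notch2 (ENSMUSG00000027878.9, chromosome 3, 97817461 to 97954290 of mm9, plus strand) had the highest promoter score of the 9. Its DHS at 97816755 to 97818398 scored 234.36, at percentile 95.2 of all protein-coding genes by the promoter score, and was centred 115 bp downstream of the TSS. A further 8 DHS lay within 50 kb upstream, with scores from 11.12 to 68.83, and 2 lay in the gene at 12295 and 17735 bp from the TSS, with scores of 52.52 and 51.40. Accessible sites were thus called on the 5′ side of the gene. The remaining 118499 bp of the gene body held 0 DHS, and the only site at the 3′ end was a DHS of 18.23 at the promoter of the neighbouring Adam30.

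The effector Rbpj (ENSMUSG00000039191.6, chromosome 5, 53947018 to 54048684, plus strand) has 3 annotated coding TSSs. Its outermost TSS, at 53947018, had no DHS in the promoter window. The DHS at 53980559 to 53981916, with a score of 104.22 and a GC content of 66.3%, covered the inner TSSs, and a DHS of 120.03 was centred 1514 bp upstream of the nearest of them. Rbpj also had an intronic DHS of only 444 bp with a score of 119.99, centred 3754 bp downstream of its nearest TSS. The locus held 6 DHS, all of them inside the annotated gene. Its density of 2.98 per 100 kb was the lowest of the 9 loci and lay at percentile 47.4 of all protein-coding genes.

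The target Hes1 (ENSMUSG00000022528.7, chromosome 16, 30064470 to 30067882, plus strand) lay almost wholly in a single DHS. This DHS spanned 3708 bp, from 30063986 to 30067693, covered 94.5% of the gene body and had a score of 225.01, at gene percentile 94.7. It contains the paired RBPJ site printed above. Upstream, DHS of 61.10 and 62.28 were centred at -41115 and -25983 bp from the coding TSS. Downstream, a DHS of 63.63 lay at 5518 bp. The locus held 11 DHS, or 10.6 per 100 kb.

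The target Dtx1 (ENSMUSG00000029603.9, chromosome 5, 121130211 to 121161936, minus strand) had the densest locus. It held 25 DHS, at percentile 99.3 of all protein-coding genes by density, and 0.644% of all genes had 25 or more. The promoters of its neighbours Rasal1 and Oas2 accounted for 8 of them, with a highest score of 187.08 at Rasal1. Inside the Dtx1 gene body, which is 31726 bp long, 12 DHS covered 34.5% of the sequence, and 1.11% of all genes had 12 or more. The TSS of the coding transcript was covered by a DHS of only 36.81, and a DHS of 59.30 was centred 2508 bp upstream. Both were weaker than 2 DHS inside the gene, at 121143465 to 121145092 with a score of 190.22 and at 121137038 to 121139055 with a score of 137.10, centred 17658 and 23890 bp from the coding TSS. These 2 sites count as promoter DHS because non-coding transcripts of Dtx1 start near them, and without such transcripts the promoter score of Dtx1 fell from percentile 91.7 to 57.7. Of the 31-base words of the DHS of 190.22, 8.20% occur more than once in the assembly.

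**Figure D3:**
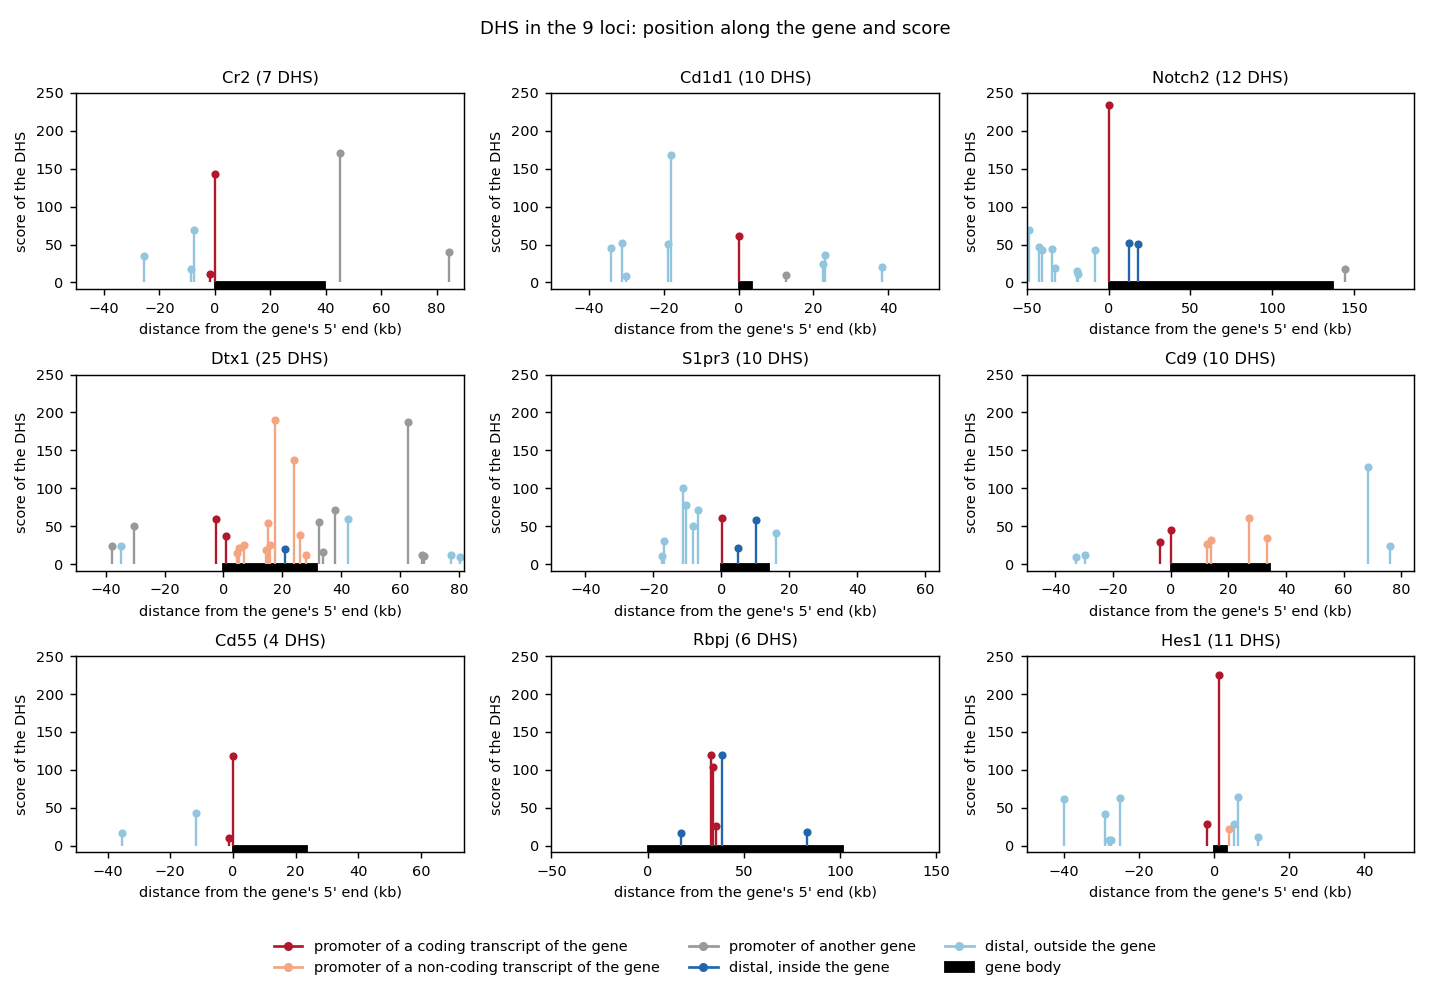
Score of each DHS (vertical axis, authors' score) against its distance from the 5′ end of the gene (kb, horizontal axis, oriented so that transcription runs to the right) in each of the 9 loci, with the gene body as a black bar. Colours give the position class, and in Dtx1 the highest DHS (190.22) stands inside the gene while in Notch2 it stands at the 5′ end (234.36).

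Among the surface markers, Cr2 (ENSMUSG00000026616.8, chromosome 1, 196963005 to 197002909, minus strand) had a DHS of 143.40 over its TSS, at 197002025 to 197003345. This was at gene percentile 84.0. The DHS at the Cr2 promoter was the only site in the gene body, and the other 39020 bp of it held 0 DHS. A DHS of 69.65 lay 7650 bp upstream of the TSS and a weaker DHS of 35.18 at 25580 bp. The highest score in the locus, 170.17, belonged to the promoter of the neighbouring Cr1l, a complement regulator gene, and the promoter of Cd46 had 40.10.

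At Cd1d1 (ENSMUSG00000028076.6, chromosome 3, 86799756 to 86803363, minus strand) the strongest site was not the promoter. The promoter DHS at 86802556 to 86804170 scored 61.86, while a DHS of 609 bp at 86821202 to 86821810, centred 18143 bp upstream, scored 168.42. A second DHS of 50.12 followed at 18946 bp, and 3 more lay 30039 to 34064 bp upstream with scores from 8.22 to 52.24. The promoter of the neighbouring Cd1d2, a close copy of Cd1d1, had a DHS of 10.28. The repeated 31-base words made up 13.5% of the Cd1d1 and 18.7% of the Cd1d2 promoter DHS, so both scores are uncertain, whereas the upstream DHS of 168.42 had 0%.

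S1pr3 (ENSMUSG00000067586.3, chromosome 13, 51503987 to 51518166, plus strand) showed a row of upstream sites. Its promoter DHS, at 51503425 to 51504752, scored 61.10 (gene percentile 57.7), below the median of 101 over the genes that had a promoter DHS. Upstream of it stood 4 DHS centred between 6966 and 11192 bp from the TSS, and their scores, from the nearest outwards, were 70.86, 49.57, 78.52 and 100.89. Of these, 3 were above the promoter score, and DHS of 29.77 and 10.54 followed farther upstream. A DHS of 58.26 overlapped an exon, 10117 bp downstream of the TSS. All 10 DHS of the locus formed a single run with gaps under 10 kb.

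The tetraspanin gene Cd9 (ENSMUSG00000030342.8, chromosome 6, 125410284 to 125444809, minus strand) had the weakest promoter of the members when coding transcripts only were considered. The DHS over its TSS, at 125444214 to 125445200, scored 45.46 and is shared with the promoter of the long non-coding RNA Gm16749. Inside the gene, 4 further DHS had scores from 27.04 to 61.15, and these lie in promoter windows of its shorter non-coding transcripts. The highest score of the locus was 128.16, at 125375678 to 125376952, in a DHS 33332 bp beyond the 3′ end.

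Cd55 (ENSMUSG00000026399.6, chromosome 1, 132335604 to 132359321, minus strand) had the fewest DHS, with 4 in its locus. Its promoter DHS scored 118.85, at gene percentile 77.5, and was centred 12 bp upstream of the TSS, in the promoter window of the long non-coding RNA Gm16083 as well. Upstream sites scored 10.24, 42.57 and 16.93. Towards the 3′ side the next DHS was 1605437 bp beyond the gene, and the stretch from 130730168 to 132358577, of 1.63 Mb with 0 unsequenced bases and only 2 whole protein-coding genes, held 0 DHS. Of the words in the promoter DHS, 10.4% are repeated in the assembly. The list gives no depth, so a missing DHS means only that none was called.

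Ranked by the promoter score at coding transcripts, the genes were thus Notch2 (234.36), Hes1 (225.01), Cr2 (143.40), Rbpj (120.03), Cd55 (118.85), Cd1d1 (61.86), S1pr3 (61.10), Dtx1 (59.30) and Cd9 (45.46). With 1 library there is no spread by which to separate neighbours in this order, such as Rbpj and Cd55 or Cd1d1, S1pr3 and Dtx1. The strongest DHS of the locus lay outside the promoter windows of the gene itself at 4 of 9 members (Cr2, Cd1d1, S1pr3 and Cd9), against 66.4% of all protein-coding genes with a DHS in the locus. At Notch2, Hes1, Cd55 and Rbpj it lay within the promoter of a coding transcript, and at Dtx1 within that of a non-coding transcript.

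Over the 9 loci, 31 DHS were in a promoter of the gene itself, 12 in a promoter of another gene only, 7 in an intron and 1 over an exon, 32 upstream and 12 downstream. The distal share was 54.7% (exact 95% interval 44.2 to 65.0), against 52.5% over all DHS, and all 9 loci held at least 1 distal DHS, as did 59.6% of all loci. The median score of distal DHS was 39.2 in the loci and 24.3 over all distal DHS, with median widths of 731 and 602 bp. Promoter DHS had medians of 36.8 in the loci and 53.3 over all DHS. Of the 43 promoter DHS, 10 at Dtx1, 4 at Cd9 and 1 at Hes1 were counted only through non-coding transcripts of these genes. A score of at least 100 was found for 14 of the 95 DHS (14.7%), against 15.6% of all DHS. The median locus held 10 DHS or 7.43 per 100 kb, against 5 and 3.38 over all protein-coding genes. At least 10 DHS were present in 6 of 9 loci and in 22.6% of all loci. Loci of other lineages were also above the median density of all genes. The median per 100 kb was 7.10 at T cell, 5.98 at myeloid and 5.78 at erythroid and megakaryocyte markers. B cell markers had 10.5. The farthest DHS inside the 50 kb limit was 48357 bp from Dtx1, with a score of 8.99, and the nearest outside was 51903 bp from Notch2, with 20.12.

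**Figure D4:**
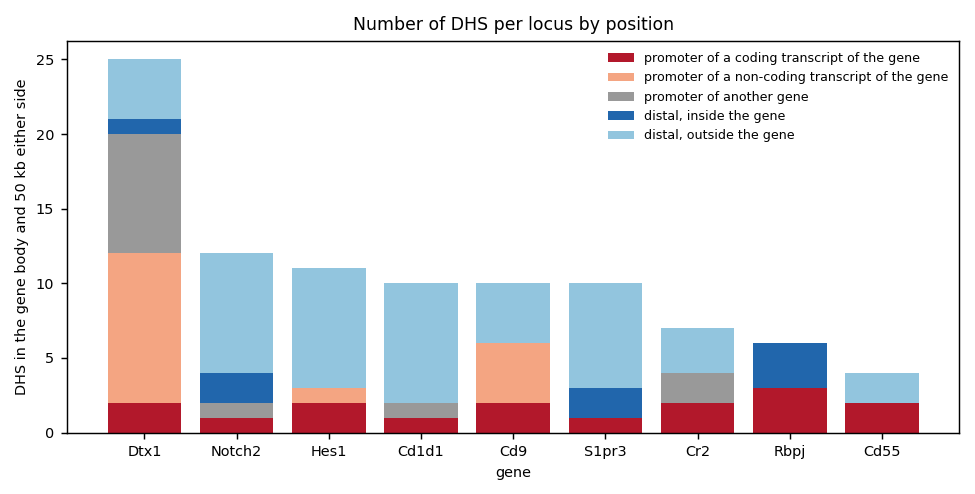
Number of DHS (vertical axis) in the gene body and 50 kb on either side for each of the 9 genes, stacked by position class. Dtx1 stands highest with 25 DHS, of which 8 belong to promoters of other genes, and Cd55 lowest with 4.

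The rest of the Notch pathway was examined with a list of 42 further genes. A promoter DHS was present at 40 of them, where 57.0% of all genes had one. The median highest score over the 42 genes, with 0 for those lacking a DHS, was 102, or 95.7 with coding transcripts only. The exceptions were the receptor Notch3 and the ligand Jag2. The coactivator gene Maml2 had a promoter DHS, of 10.75, only by way of non-coding transcripts. Among the other receptors, Notch1 scored 148.32. Notch4 scored 190.94 by way of non-coding transcripts and 25.02 at its coding transcripts. Among the ligands, the promoter scores were 79.04 at Dll1, 46.58 at Dll4, 17.48 at Jag1 and 13.20 at Dll3. A score of at least 100, which 29.0% of all genes had, was reached by 0 of 5 ligands. The fringes, glycosyltransferases that modify Notch receptors, had 59.67 at Mfng, 49.74 at Lfng and 23.82 at Rfng. All 9 genes of receptor processing had a promoter DHS, of which 7 scored at least 100, as did 5 of 7 coactivators and corepressors and 7 of 10 ubiquitin ligases and endocytic regulators. Among further targets, Hes5 had 115.00, Hey1 90.82, Hey2 74.72, Nrarp 63.34 and Heyl 12.72.

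Other genes of B cell subsets were examined in the same way, beside the 57.0% of all genes with a promoter DHS and the 29.0% with a score of at least 100. All 9 other marginal zone genes had a promoter DHS, and 1 reached 100, with scores from 24.42 at Cd36, a scavenger receptor, to 139.47 at Tnfrsf13b, which encodes the receptor TACI. Their median was 67.0, and their median locus held 16 DHS (12.6 per 100 kb). All 10 genes of other mature B cell subsets had a promoter DHS too, and 3 reached 100, with scores from 19.39 at Zbtb32 to 279.86 at Klf2, a regulator of lymphocyte traffic. That list had a median of 82.8 and a median density of 12.6 per 100 kb. Cd5 stands in that list and also among the T cell markers.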

How the data were processed

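Peaks were taken from the deposited list of the DNaseI library. The authors called peaks with MACS (by the peak names) and deposited a position and a score for each, whose scale is not given in the sources used here. The study gives caller settings for its ChIP-seq data, which may not cover this list. The submitters' processing notes name BWA 0.6.2, SAMtools and build mm9. Read numbers are not part of the list, and the depth is unknown. Starts were converted to positions counted from 1.

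Genes and TSSs came from GENCODE release M1 and sequence from the matching NCBI build 37 (mm9). A single peak passed a chromosome end, by 52 bp. Overlap was at least 1 bp, and word and locus values were computed with Python 3.11.15, numpy 2.4.6, scipy 1.17.1 and pysam 0.24.0. Percentiles are among 22350 protein-coding genes, and for promoter scores those without a promoter DHS count as 0. Mzb1 was matched through an older symbol in a RefSeq table. Counting of peaks and words was tested on simulated data.

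The members and the lists of comparison genes were chosen with earlier results of these data known. All 9 members were named. Of the lists, Notch receptors, ligands, fringes and targets were named, and elsewhere members without a promoter DHS where fewer than 6 lacked one. The other genes of these lists were named for the highest or lowest score or for a promoter DHS at non-coding transcripts only. They were named, and the printed promoters chosen, after their values had been seen. A further B cell marker is not reported here. Intervals are at the 95% level and cover counting error only. Alternatives were a higher score threshold, other windows, flanks and words, merged peaks, the peak centre and fewer TSSs.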

Additional observations from a re-analysis of the deposited data

How the results depend on the processing

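The setting with TSSs of coding transcripts only was chosen after the data had been seen. Of 28 alternative values for 5 results, 21 stayed within 1.5 times the main value or, for shares, within its interval. All 9 members had a promoter DHS under each of the alternatives except the outermost TSS alone, where Rbpj had none and 8 remained. With the outermost TSS alone the median promoter score was 61.9 in place of 120.03. The number of DHS in the loci was 51 with peaks at or above the median score and 56 with 10 kb either side, both by construction. The distal share was 74.7% with a promoter of 1 kb on each side and 33.9% in loci of 10 kb either side. The share with the RBPJ word was 32.6% for TGGGAA and 21.1% for GTGNGAA, which match more often by construction. No paired analysis was possible because there is 1 library per group. The unknown depth limits every statement on a missing DHS.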
